A study of Mus musculus with 23 samples.

Results

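Interferon-stimulated genes are the genes that cells switch on when type I interferon reaches them, and 31 of them were followed here in muscle, fat and hypothalamus of mice given oxaliplatin or vehicle. The 31 were chosen by gene symbol, from a list that names no threshold or value, but with earlier results of these data known. The shares of this set and of the further lists, given beside those of all genes, are therefore descriptive. All 31 were found in each deposited table. They were 31 of 20628 genes listed for muscle, of 26702 for fat and of 25623 for hypothalamus. In the pathway, interferon binds its receptor, the kinases Jak1 and Tyk2 phosphorylate Stat2, and a complex that holds Stat2 and Irf9 binds the interferon-stimulated response element (ISRE) in promoters. The products then detect foreign RNA or DNA, cut or trap it, block translation or hold back virus release. In fat, hypothalamus and muscle, resident macrophages or microglia, endothelial cells and the parenchymal cells can all express these genes at a low tonic level.

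RNA was sequenced from tibialis anterior (a shin muscle), subcutaneous white fat and hypothalamus of C57BL/6 mice, an inbred strain, after a treatment course of 8 weeks. The treated mice received oxaliplatin, a platinum drug that crosslinks DNA and is used against colorectal cancer, at 10 mg/kg, and the others received vehicle. There were 5 oxaliplatin and 4 vehicle libraries of muscle, 4 and 3 of fat, and 4 and 3 of hypothalamus, each from 1 mouse. Mouse numbers recur across tissues within a treatment, so libraries of different tissues may come from the same mouse. The labels name no allele, transgene or tumour for any group. Muscle libraries were prepared with the Clontech SMARTer kit and those of fat and hypothalamus with a RiboErase kit, so levels of muscle set beside the other tissues differ in kit as well as in tissue.

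The promoters of 22 of the 31 genes were in the RefSeq promoter table (GRCm38.p6, 250 bases before to 50 after each start site). They were searched because the set is defined by a shared response, and the ISRE core is the sequence by which that response is known. The core was searched as GAAA, any 2 bases and GAAA again, on both strands; on the opposite strand it reads TTTC, any 2 bases and TTTC. It was present in 14 of the 22 genes (63.6%), against 1079 of all 27025 gene symbols in the table (3.99%). Per promoter, with alternative starts counted apart, it was in 15 of 26 promoters of the set and in 1131 of all 32851 (3.44%). The genes with a promoter in the table and no match were Irf7, Irf9, Oasl1, Oasl2, Ifit2, Cmpk2, Xaf1 and Ifi44. Dhx58, Zbp1, Oas2, Mx1, Mx2, Usp18, Ifi27l2a, Parp14 and Rtp4 had no entry. A match describes letters in this window, and binding of the complex was not measured.

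Shown here are the promoters of Rsad2, which stood highest against vehicle in fat, of Ifit3 and Gbp2, whose fat levels were low in most oxaliplatin mice, and of Isg15, the namesake of the class, in which 3 matches overlap. Each is printed 5′ to 3′ on the strand of its gene, with matches in capitals, from chr12:26456403-26456702 (minus strand), chr19:34583279-34583578 (plus), chr3:142620413-142620712 (plus) and chr4:156200769-156201068 (minus).

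Rsad2: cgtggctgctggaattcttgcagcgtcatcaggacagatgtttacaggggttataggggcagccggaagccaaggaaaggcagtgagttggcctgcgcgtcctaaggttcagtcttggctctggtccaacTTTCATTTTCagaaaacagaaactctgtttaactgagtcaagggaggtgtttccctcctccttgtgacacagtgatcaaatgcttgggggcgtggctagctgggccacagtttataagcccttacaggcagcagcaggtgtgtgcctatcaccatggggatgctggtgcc
Ifit3: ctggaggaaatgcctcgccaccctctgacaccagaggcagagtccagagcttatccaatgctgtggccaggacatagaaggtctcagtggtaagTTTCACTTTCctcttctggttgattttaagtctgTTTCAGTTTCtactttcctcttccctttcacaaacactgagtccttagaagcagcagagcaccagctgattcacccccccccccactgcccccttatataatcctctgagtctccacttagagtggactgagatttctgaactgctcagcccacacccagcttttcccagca
Gbp2: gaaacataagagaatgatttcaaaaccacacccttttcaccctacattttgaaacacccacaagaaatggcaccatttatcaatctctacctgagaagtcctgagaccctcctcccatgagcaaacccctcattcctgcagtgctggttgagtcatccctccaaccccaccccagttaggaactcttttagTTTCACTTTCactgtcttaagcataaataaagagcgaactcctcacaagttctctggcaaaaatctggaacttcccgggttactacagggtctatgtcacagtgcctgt
Isg15: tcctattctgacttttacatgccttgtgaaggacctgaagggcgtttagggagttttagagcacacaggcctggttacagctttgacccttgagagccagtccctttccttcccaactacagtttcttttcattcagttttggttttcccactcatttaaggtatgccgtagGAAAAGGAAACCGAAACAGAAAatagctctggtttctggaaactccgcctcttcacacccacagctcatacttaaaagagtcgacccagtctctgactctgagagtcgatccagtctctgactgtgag

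In Rsad2 the match lay 120 to 111 bases before the start site, in Gbp2 59 to 50, and in Isg15 the overlapping matches ran from 78 to 57. Ifit3 had a match 156 to 147 bases and another 122 to 113 bases before its start. Ifih1 and Ddx58 had their only match after the start site.

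**Figure D1:**
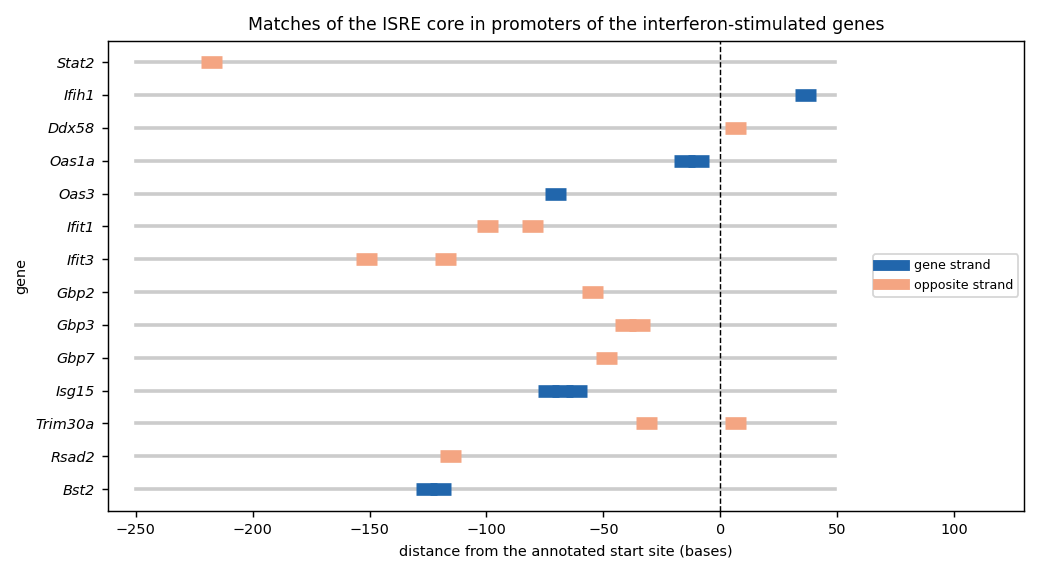
Position of each match to the ISRE core (x axis, bases from the annotated start site, negative before it) in the 14 genes that hold one; grey lines are the 300 bases searched, blue blocks are matches on the gene strand and orange blocks on the opposite strand. In 11 of the 14 genes every match lay before the start site.

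Several of the genes lie side by side on GRCm38. Ifit1, Ifit2 and Ifit3 are on chromosome 19, where Ifit3 spans chr19:34583531-34588731. The Oas genes and the Oasl genes form separate groups on chromosome 5, with Oasl2 starting at base 114896936 and Oas2 at base 120730333. Gbp2, Gbp3 and Gbp7 are on chromosome 3 (Gbp2 at chr3:142620602-142638008) and Mx1 and Mx2 on chromosome 16. Rsad2 (chr12:26442746-26456452, minus strand) and Cmpk2 (chr12:26469204-26479837, plus strand) are neighbours that point away from each other. Some of these families hold near copies, and values of their members are uncertain where the authors' counting may have split reads. Of the 50-base stretches of its exons, Oas1a shared 57.6% with other genes, mostly Oas1g, Ifit3 51.2%, mostly with Ifit3b, Gbp7 12.7%, Rtp4 11.6% and Ifit1 7.13%. Irf7 overlaps Phrf1 and Dhx58 overlaps its antisense gene Dhx58os, so without strand in the counting their reads cannot be told apart. Irf9 and Rnf31 overlap on 1 strand.

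Total counts per library were 22427800 to 32151400 with oxaliplatin and 27344100 to 31196000 with vehicle in muscle. They were 16458600 to 17986600 and 16866100 to 22748400 in fat, and 23553700 to 26426400 and 27345700 to 28529400 in hypothalamus. The 31 genes together held 2420 to 5769 counts per muscle library, 7593 to 20483 per fat library and 3586 to 4770 per hypothalamus library. Each tissue carried its defining markers: muscle fibre genes summed to 129360 to 174711 CPM (counts scaled to a common library total) with oxaliplatin and 131166 to 172640 with vehicle in muscle. Adipocyte genes summed to 4316 to 10210 and 10240 to 14558 CPM in fat, and hypothalamic peptide genes to 943 to 1209 and 867 to 1221 CPM in hypothalamus. In fat, oxaliplatin mouse 5 stood apart from the other oxaliplatin libraries, and vehicle mouse 4 held 122271 CPM of muscle fibre genes, against at most 3018 CPM in the other fat libraries. For muscle mouse 5 the labels conflict: the title gives oxaliplatin and the treatment field vehicle, and it was kept with oxaliplatin, where its title and the stated group sizes place it.

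No interferon-stimulated gene passed the test between oxaliplatin and vehicle in any tissue with all libraries in. The test was the edgeR quasi-likelihood test with an adjusted p under 0.05 over all genes tested, and log2 fold changes are given ± SE. It called 0 of 27 genes of the set in muscle (0.163% of all genes tested were called, 0.115% higher and 0.0475% lower), 0 of 31 in fat (0% of all) and 0 of 28 in hypothalamus (0.148% of all). At an unadjusted p under 0.05 the numbers were 1 in muscle, 2 in fat and 1 in hypothalamus, against 9.59%, 26.1% and 10.2% of all genes, so none of the shares exceeded its background. By direction, the muscle gene was higher (4.8% of all were higher and 4.79% lower), fat had 1 of each (13.4% and 12.7%), and the hypothalamus gene was lower (6.2% of all were higher and 4% lower). DESeq2 called 0, 1 and 0 of them (Rsad2 in fat, higher), against 1.49%, 12.1% and 1.43% of all genes it tested, and limma-voom called 0 in each, against 0.0882% of all genes in muscle (0.0814% higher), 0% in fat and 0.0581% in hypothalamus. The genes not tested were below the minimum count: Mx1, Mx2, Oas3 and Zbp1 in muscle, and Mx1, Oasl1 and Zbp1 in hypothalamus.

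The set nevertheless leaned in different directions in the tissues. The median log2 fold change, oxaliplatin over vehicle, was -0.23 in fat, where 7 genes were above 0 (52.4% of all genes were) and 24 below (47.6% of all), while all genes tested had a median of 0.03. In whole tissue, fewer cells of a type and less RNA per cell cannot be told apart. In hypothalamus the median was 0.15, with 21 genes above 0 and 7 below, against 52% and 48% of all genes, whose median was 0.01. In muscle it was 0.11, with 20 above and 7 below, against 47.8% and 52.2% of all genes, whose median was -0.01. These medians depended on single libraries in all tissues. The median was -0.02 in hypothalamus without oxaliplatin mouse 3 and -0.02 in muscle without vehicle mouse 1. In fat it stayed below 0 but ran from -0.65 without oxaliplatin mouse 5 to -0.06 without oxaliplatin mouse 3. The 95% interval of the fold change lay wholly between -1 and 1 on the log2 scale for 20 of 27 genes in muscle (75.9% of all genes), 8 of 31 in fat (50% of all) and 16 of 28 in hypothalamus (74.6% of all). In fat the lower bound was above -1 for 13 of the 31 genes, against 14715 of all 19870 genes tested. The upper bound was below 1 for 25 of the 31, against 14120 of all.

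**Figure D2:**
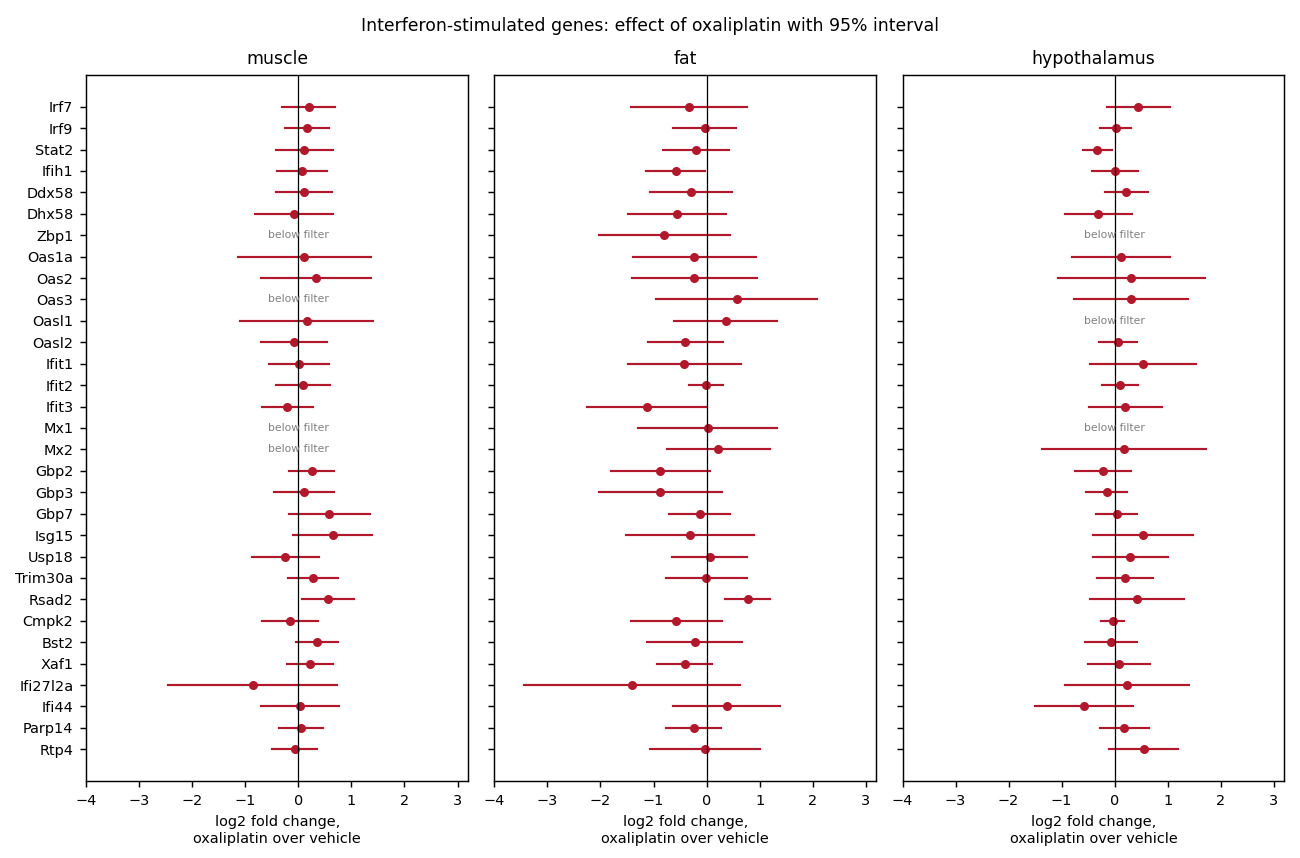
Log2 fold change of each gene, oxaliplatin over vehicle (x axis; point, edgeR estimate; line, 95% interval), in muscle, fat and hypothalamus; genes run down the page by role. Most intervals cross 0; those of Rsad2 in fat and in muscle lie above it, and those of Ifih1 in fat and Stat2 in hypothalamus below it.

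**Figure D3:**
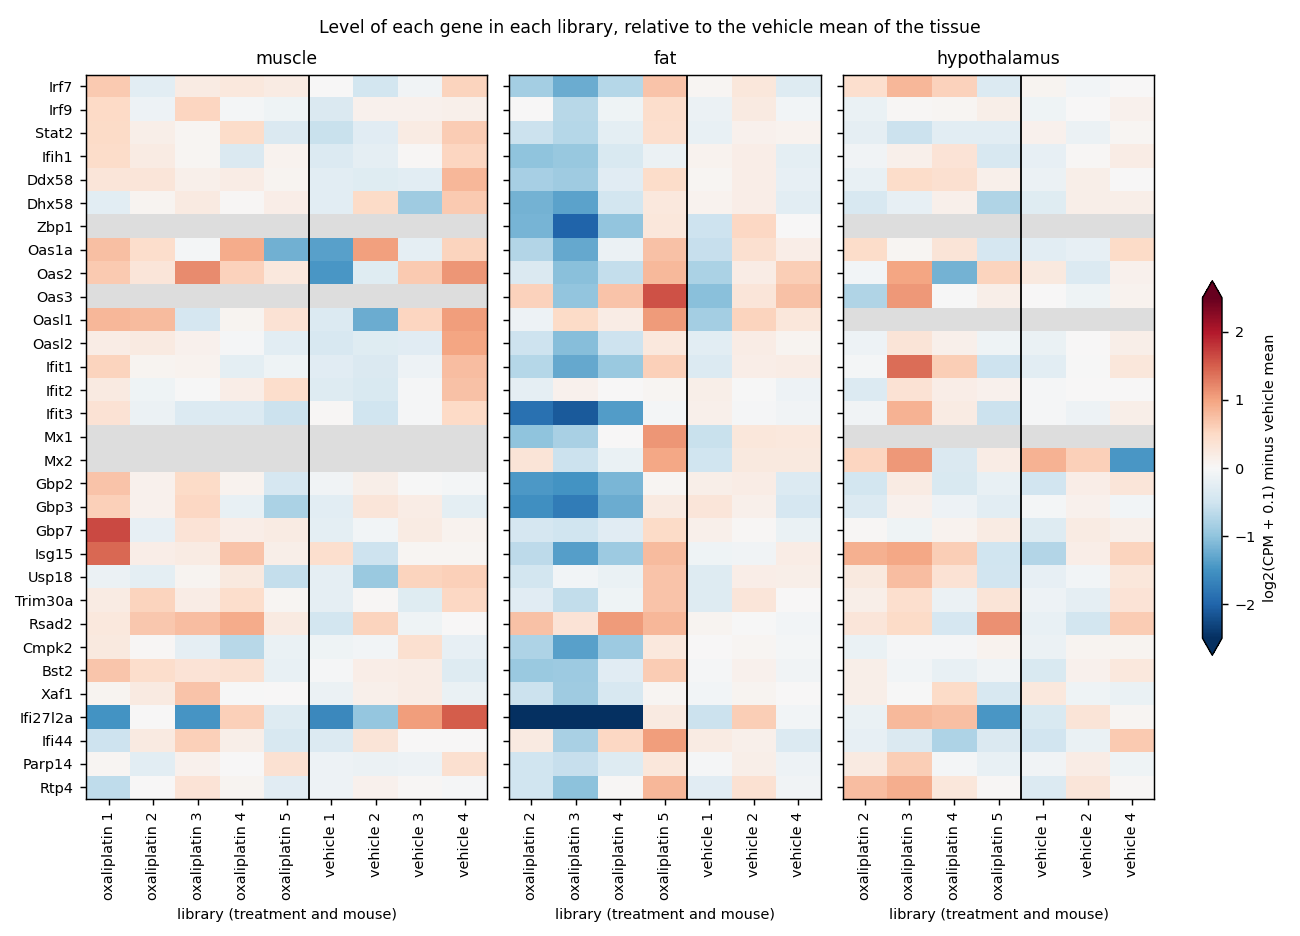
Level of each gene (rows) in each library (columns) as log2(CPM + 0.1) minus the vehicle mean of that tissue; oxaliplatin libraries stand left of the black line, grey rows were below the minimum count, and values past 2.5 take the end colour. In fat, oxaliplatin mice 2, 3 and 4 are mostly blue and mouse 5 mostly red.

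In fat, the antiviral enzyme Rsad2 was higher in every oxaliplatin library than in every vehicle library, while most other genes of the set were low in oxaliplatin mice 2, 3 and 4 and not in mouse 5. Rsad2 (viperin) makes a modified nucleotide that stops viral RNA synthesis. It had 19.5, 14.9, 24.5 and 20.9 normalised CPM in oxaliplatin mice 2 to 5, against 12.2, 11.6 and 11.2 in vehicle mice 1, 2 and 4. The groups did not overlap, which was so for 10.3% of all genes tested in this direction. Its mean was 19.9 ± 3.97 CPM with oxaliplatin and 11.7 ± 0.524 CPM with vehicle (SD, n = 4 and 3). The log2 fold change was 0.77 ± 0.18 (SE), with an adjusted p of 0.114 by the edgeR test. DESeq2 put the adjusted p at 0.0112, and over all alternatives it ran from 0.0112 to 0.263, with log2 fold changes of 0.66 to 0.94, all above 0. Cmpk2, a mitochondrial nucleotide kinase and the neighbour of Rsad2, did not follow it: it had 8.49, 5.60, 7.69 and 17.5 CPM with oxaliplatin, against 14.6, 14.96 and 14.1 CPM with vehicle (log2 fold change -0.57 ± 0.36, adjusted p = 0.342 by edgeR). Its value in mouse 5 was the highest of the 7 libraries, and those in mice 2, 3 and 4 were the lowest.

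Ifit3, an RNA-binding protein that acts with Ifit1, had 7.25, 6.09, 9.96 and 25.6 normalised CPM in oxaliplatin mice 2 to 5, against 28.8, 26.1 and 24.9 in vehicle mice 1, 2 and 4. Mouse 5 lay within the vehicle range and the other oxaliplatin mice well below it. The log2 fold change was -1.12 ± 0.48 with an adjusted p of 0.195 by edgeR. Ifit1, which binds RNA without a host cap mark, had 5.08, 3.40, 4.38 and 12.8 CPM with oxaliplatin, against 6.61, 9.47 and 9.52 CPM with vehicle, and Ifit2, its relative, had 13.6, 17.2, 16.1 and 16.5 CPM with oxaliplatin, against 17.6, 15.7 and 14.5 CPM with vehicle. Ifit1 showed the split of mouse 5 from the others, and Ifit2 did not.

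The guanylate-binding proteins attack microbes inside the cell, and all 3 in the set split oxaliplatin mouse 5 from the rest. Gbp2 had 18.9, 18.0, 23.2 and 53.3 CPM with oxaliplatin, against 56.9, 58.6 and 40.2 CPM with vehicle (log2 fold change -0.87 ± 0.40, adjusted p = 0.212 by edgeR). Gbp3 had 9.20, 7.85, 11.3 and 31.4 CPM with oxaliplatin, against 32.8, 29.2 and 19.8 CPM with vehicle (log2 fold change -0.87 ± 0.50, adjusted p = 0.292 by edgeR). For Gbp7 the values were 37.4, 35.8, 41.5 and 70.1 CPM with oxaliplatin, against 54.8, 51.6 and 45.0 CPM with vehicle (log2 fold change -0.13 ± 0.25, adjusted p = 0.757 by edgeR). In each of the 3, mice 2, 3 and 4 lay below every vehicle mouse. Mouse 5 exceeded vehicle mouse 4 for Gbp2, vehicle mice 2 and 4 for Gbp3 and all vehicle mice for Gbp7, so the groups overlapped through mouse 5.

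The sensors of foreign nucleic acid were lower by estimate, and none passed the test. Ifih1 (MDA5), which detects long double-stranded RNA, had 23.7, 24.6, 36.3 and 43.2 CPM with oxaliplatin, against 50.1, 53.1 and 40.1 CPM with vehicle (log2 fold change -0.58 ± 0.24, adjusted p = 0.178 by edgeR). Its oxaliplatin values were below all vehicle values except in mouse 5, which passed vehicle mouse 4. The log2 fold change was -0.29 ± 0.33 for Ddx58 (RIG-I, the sensor of short RNA ends), -0.55 ± 0.40 for Dhx58 (LGP2, their cofactor) and -0.80 ± 0.53 for Zbp1 (a sensor of Z-form nucleic acid). Among the transcription factors, Irf7, which amplifies interferon production, had 18.7, 14.3, 20.5 and 55.8 CPM with oxaliplatin, against 34.7, 40.9 and 27.1 CPM with vehicle. That is, mouse 5 exceeded all vehicle mice and the other oxaliplatin mice were below all of them (log2 fold change -0.33 ± 0.47, adjusted p = 0.667 by edgeR). Stat2 and Irf9, partners in the ISRE-binding complex, had log2 fold changes of -0.21 ± 0.27 and -0.04 ± 0.25.

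Ifi27l2a, a small membrane protein, had the highest level per kilobase of exon in fat, 254.9 CPM per kb with oxaliplatin and 676.5 with vehicle. Its values were 35.8, 51.4, 37.4 and 347 CPM with oxaliplatin, against 204, 455 and 281 CPM with vehicle. Mice 2, 3 and 4 were far under the vehicle range and mouse 5 inside it (log2 fold change -1.41 ± 0.87, adjusted p = 0.324 by edgeR). Next by level per kilobase came Bst2 (tetherin, which holds budding virus at the cell surface) with 20.7 and 24.2 CPM per kb, and Gbp2 with 11.3 and 20.6. Bst2 had 11.4, 11.6, 18.0 and 33.8 CPM with oxaliplatin, against 21.4, 23.6 and 20.5 CPM with vehicle. Xaf1, which counters the cell death inhibitor XIAP, had 9.68, 7.58, 10.7 and 14.6 CPM with oxaliplatin, against 13.4, 14.8 and 14.2 CPM with vehicle (log2 fold change -0.41 ± 0.22, adjusted p = 0.267 by edgeR). Bst2 showed mouse 5 above all vehicle mice, Xaf1 showed it within them, and both had mice 2, 3 and 4 below.

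At the low end in fat were Mx2, Oas3 and Ifi44, with 0.675, 0.520 and 0.408 CPM per kb with oxaliplatin and 0.576, 0.349 and 0.314 with vehicle. Mx2, a dynamin-like GTPase, had 2.54, 1.37, 1.78 and 4.06 CPM with oxaliplatin, against 1.40, 2.43 and 2.42 CPM with vehicle. Oas3, which makes the oligoadenylate that activates RNase L, had 3.30, 1.04, 3.61 and 6.76 CPM with oxaliplatin, against 1.001, 2.71 and 3.69 CPM with vehicle. Ifi44 had 2.22, 1.04, 2.74 and 4.00 CPM with oxaliplatin, against 2.20, 2.08 and 1.49 CPM with vehicle. Mouse 5 was the highest library for all 3, and the groups overlapped. Of the other members, Isg15 (a ubiquitin-like modifier) had a log2 fold change of -0.30 ± 0.52, its protease Usp18 0.06 ± 0.30, Trim30a -0.003 ± 0.33 and the ADP-ribosyltransferase Parp14 -0.24 ± 0.22. The remaining Oas family genes lay between -0.40 (Oasl2) and 0.36 (Oasl1), with Mx1 at 0.02 and Rtp4 at -0.03. Laboratory C57BL/6 mice are known to carry a defective Mx1.

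**Figure D4:**
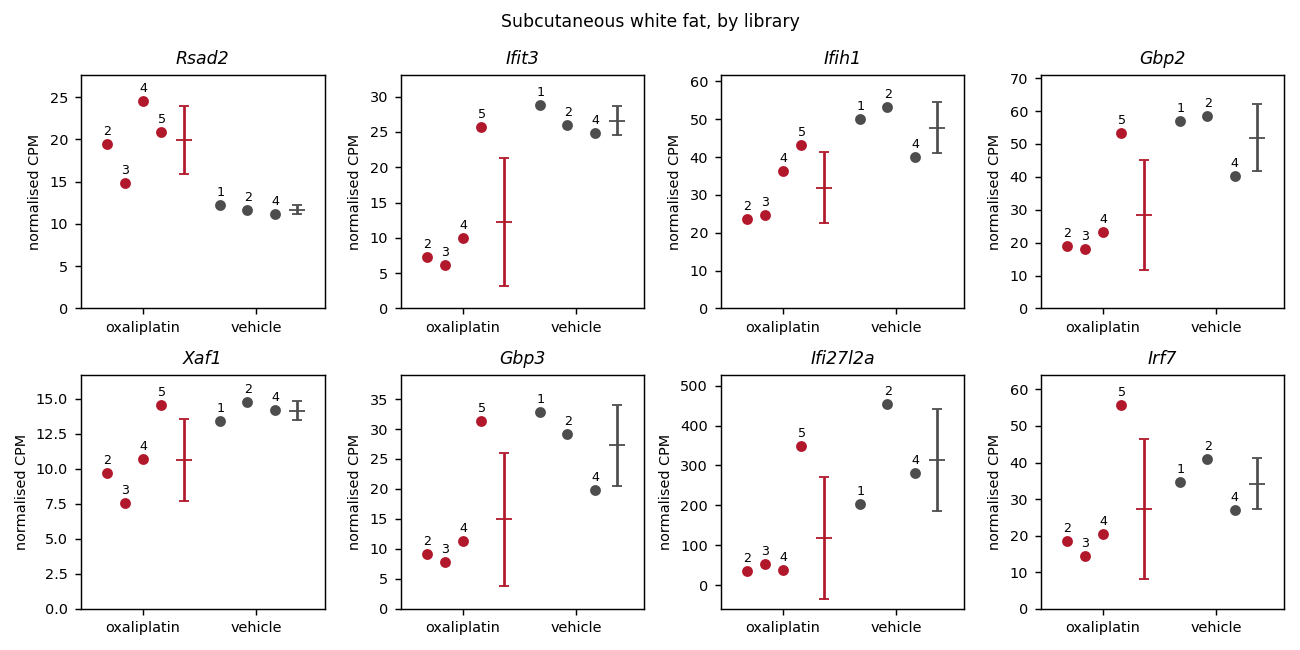
Normalised CPM (y axis) of 8 genes in fat, 1 point per library with its mouse number, oxaliplatin left and vehicle right; bars are the mean and SD (n = 4 and 3). For Rsad2 the groups are apart, and for the others oxaliplatin mouse 5 sits near or above the vehicle mice while mice 2, 3 and 4 sit low.

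Over the 31 genes in fat, oxaliplatin mouse 5 was above mice 2, 3 and 4 for 29, against 37% of all genes tested, and was the highest of all 7 libraries for 22, against 14.6% of all. Mice 2, 3 and 4 were all below every vehicle mouse for 18 genes, against 22.8% of all genes, and all above for 1, Rsad2, against 23.2%. Mouse 5 was singled out with its values in these genes known, so these shares are descriptive. The level of the set (mean log2 CPM minus the vehicle mean) was -0.66, -0.96, -0.43 and 0.54 in oxaliplatin mice 2 to 5, against -0.19, 0.20 and 0.00 in vehicle mice 1, 2 and 4. Summed CPM of the set was 454, 417, 535 and 1200 with oxaliplatin, against 846, 1183 and 891 with vehicle.

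Leaving out each library in turn was 1 of the alternatives. The omission of oxaliplatin mouse 5 was the only 1 of the 7 in fat that gave a call among the 31 genes. This library was already seen to go against oxaliplatin mice 2, 3 and 4, so the calls without it are no independent support for a fall. Without mouse 5, edgeR called 17 of 31 lower, against 13.5% of all 19472 genes tested. It called 1 of 31, Rsad2, higher, a share below the 12% of all genes. Of all genes, 4969 were called, against 0 with mouse 5 in, so most of what this omission adds lies outside the set. The 17 lower genes were Irf7, Ifih1, Ddx58, Dhx58, Zbp1, Oasl2, Ifit1, Ifit3, Gbp2, Gbp3, Gbp7, Isg15, Cmpk2, Bst2, Xaf1, Ifi27l2a and Parp14. The largest fall was in Ifi27l2a (log2 fold change -2.92 ± 0.32, adjusted p = 0.00205 by edgeR), followed by Ifit3 (-1.77 ± 0.20, adjusted p = 0.00176), Gbp3 (-1.53 ± 0.23, adjusted p = 0.00425), Zbp1 (-1.40 ± 0.35, adjusted p = 0.0265) and Gbp2 (-1.37 ± 0.18, adjusted p = 0.00277). Rsad2 rose by 0.75 ± 0.19 (adjusted p = 0.0288). Over the other 13 alternatives, all 17 genes kept an estimate below 0, and the smallest adjusted p among them was 0.0511, for Ifit3 in 1 fit over all tissues. Over those alternatives adjusted p ran to 0.359 for Ifit3, from 0.0662 to 0.558 for Ifi27l2a, from 0.0667 to 0.396 for Gbp2, from 0.121 to 0.494 for Gbp3 and from 0.151 to 0.643 for Zbp1. The median of the set was -0.65 without mouse 5, against -0.23 with it. Without vehicle mouse 4, the library with muscle fibre RNA, no gene of the set was called and the median was -0.19.

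Markers of some cell types followed these levels in fat and others did not. Fibroblast and adipocyte markers were low in oxaliplatin mice 2, 3 and 4, like most of the set. B cell, T cell and neutrophil markers were instead above all vehicle mice in oxaliplatin mice 3 and 4. Fibroblast markers (0 of 6 called) summed to 617, 1040 and 891 CPM in oxaliplatin mice 2, 3 and 4 and to 8980 in mouse 5, against 4530 to 6365 CPM in vehicle mice. Adipocyte markers (0 of 7 called) summed to 4660, 4320 and 4920 CPM in oxaliplatin mice 2, 3 and 4 and to 10200 in mouse 5, against 10240 to 14558 CPM with vehicle. Leukocyte markers (0 of 5 called) were at 64.6, 164, 171 and 457 CPM with oxaliplatin, against 110 to 207 CPM with vehicle. B cell markers (0 of 5) were at 0.379, 20.3, 27.1 and 138 CPM, against 2.42 to 4.39, and T cell markers (0 of 8) at 6.38, 35.6, 37.5 and 71.8 CPM, against 6.38 to 9.07. Neutrophil markers (0 of 3 tested; Ly6g not listed) were at 4.81, 6.86, 12.9 and 85.5 CPM, against 3.00 to 4.62. Macrophage markers (0 of 12) spanned 654 to 1337 CPM with oxaliplatin and 638 to 1258 with vehicle, and endothelial markers (0 of 9) 1260 to 1381 and 949 to 1307. NK cell markers (0 of 6) were at 0.974, 3.57, 3.94 and 12.1 CPM with oxaliplatin, against 5.87 to 11.4 with vehicle. Erythroid markers (0 of 5) were at 204, 321, 554 and 1530 CPM, against 681 to 937. Microglia markers (0 of 4 tested) were at 16.7, 24.9, 31.3 and 60 CPM, against 36.3 to 57.4. Mouse 5 was thus the highest library for all of these lists except the adipocyte and endothelial markers, as well as for the set. The part of these cells in its levels was not tested.

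**Figure D5:**
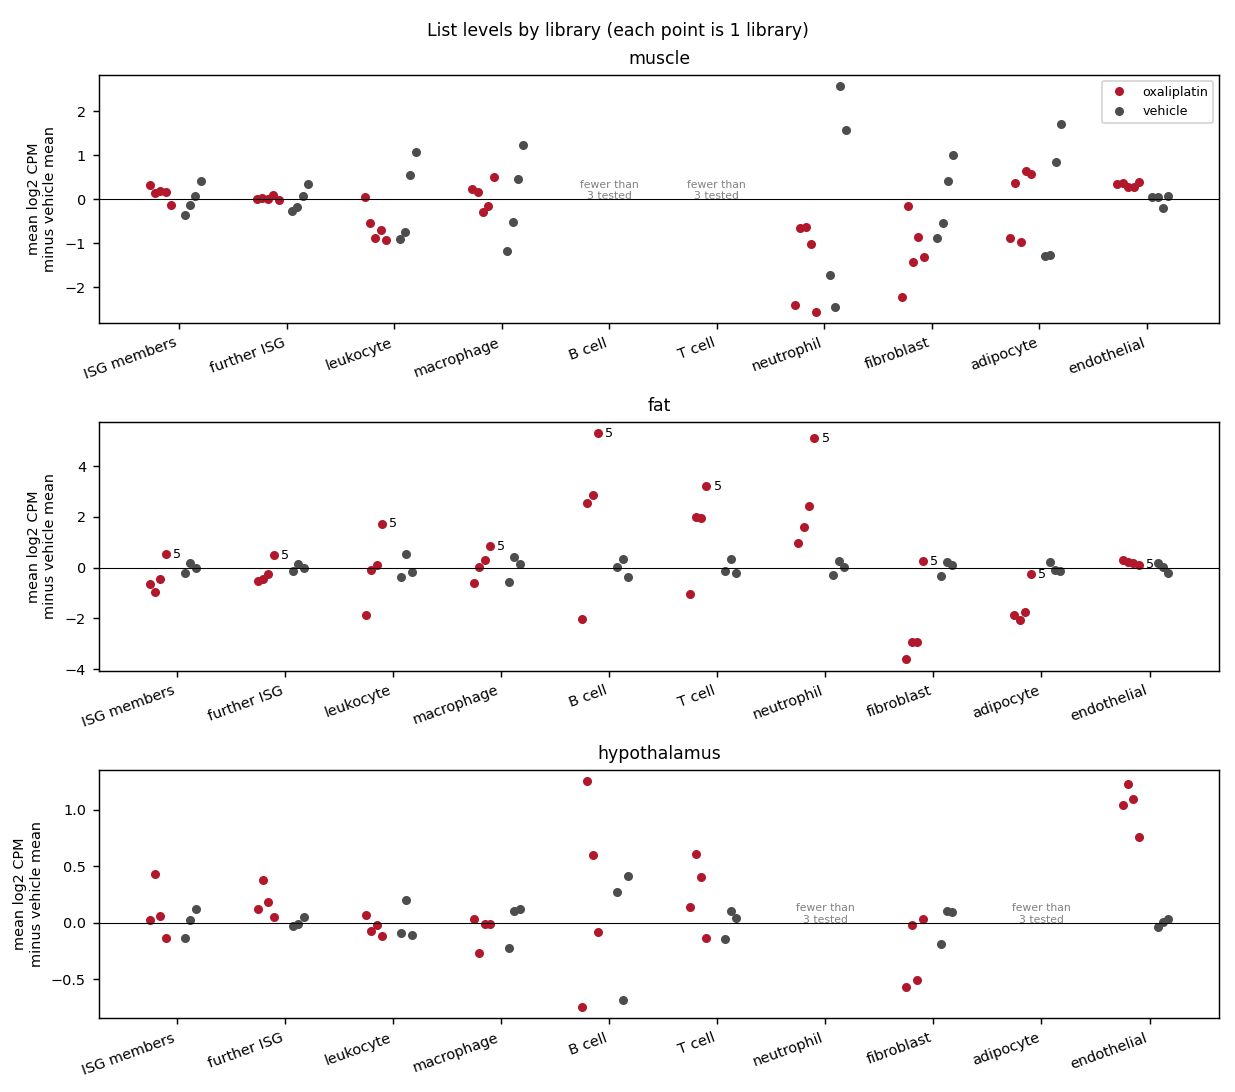
Level of each list in each library (y axis, mean log2 CPM minus the vehicle mean) in muscle, fat and hypothalamus, oxaliplatin red and vehicle grey; the 5 marks oxaliplatin mouse 5 in fat and ISG stands for interferon-stimulated gene. In fat, mouse 5 is the highest oxaliplatin point for the set and for all leukocyte and fibroblast lists, and in hypothalamus the endothelial points of the groups do not overlap.

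In hypothalamus, Stat2 was lower in every oxaliplatin library than in every vehicle library, and the rest of the set overlapped between the groups. Stat2, a partner of Irf9 in the ISRE-binding complex, had 13.7, 11.0, 13.4 and 13.4 normalised CPM in oxaliplatin mice 2 to 5, against 17.2, 14.5 and 16.6 in vehicle mice 1, 2 and 4. Groups were apart for 9.93% of all genes tested, and in this direction for 4.35%. Its mean was 12.9 ± 1.26 CPM with oxaliplatin and 16.1 ± 1.44 CPM with vehicle (SD, n = 4 and 3), a log2 fold change of -0.32 ± 0.12, and the adjusted p was 0.441 by edgeR. Irf7 had 3.62, 4.89, 4.08 and 2.10 CPM with oxaliplatin, against 2.84, 2.56 and 2.70 CPM with vehicle (log2 fold change 0.45 ± 0.27, adjusted p = 0.589 by edgeR). Irf7 was above vehicle in mice 2, 3 and 4 and below it in mouse 5. Irf9 was at 8.46, 9.71, 9.84 and 10.5 CPM with oxaliplatin, against 8.82, 9.502 and 10.2 with vehicle, almost level.

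Among the effectors and sensors, Rtp4, a receptor transporter protein, had 2.62, 2.88, 1.85 and 1.52 CPM with oxaliplatin, against 1.16, 1.87 and 1.51 CPM with vehicle (log2 fold change 0.55 ± 0.29). Isg15 had 2.30, 2.43, 1.88 and 0.823 CPM with oxaliplatin, against 0.684, 1.37 and 1.81 CPM with vehicle (log2 fold change 0.53 ± 0.42). Both were high in mice 2 and 3 and lower in mouse 5, inside the vehicle range. Ddx58 had 6.08, 9.58, 9.23 and 7.57 CPM with oxaliplatin, against 6.26, 7.67 and 6.94 CPM with vehicle (log2 fold change 0.22 ± 0.18), and Dhx58 had 1.17, 1.36, 1.73 and 0.905 CPM with oxaliplatin, against 1.27, 1.76 and 1.77 CPM with vehicle (-0.31 ± 0.29). Ifi44 had 0.564, 0.494, 0.346 and 0.494 CPM with oxaliplatin, against 0.445, 0.576 and 1.11 CPM with vehicle (log2 fold change -0.57 ± 0.41). The estimates of the sensors pointed both ways, and the high vehicle value of Ifi44 came from mouse 4 alone. Adjusted p values of these 5 genes were 0.554 to 0.717 by edgeR.

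The IFIT genes were among the most abundant of the set per kilobase in hypothalamus, with Ifit3 at 10.9 CPM per kb with oxaliplatin and 9.49 with vehicle, Cmpk2 at 6.80 and 6.98, and Ifit2 at 4.50 and 4.21. Ifit1 had 4.95, 13.8, 7.88 and 3.54 CPM with oxaliplatin, against 4.28, 5.08 and 6.24 CPM with vehicle (log2 fold change 0.54 ± 0.43, adjusted p = 0.683 by edgeR). Ifit3 had 15.5, 30.4, 19.0 and 11.4 CPM with oxaliplatin, against 16.2, 15.2 and 18.3 CPM with vehicle, and Ifit2 had 13.0, 21.3, 18.5 and 17.8 CPM with oxaliplatin, against 16.2, 16.6 and 16.8 CPM with vehicle. Oxaliplatin mouse 3 was the highest library for all 3. Cmpk2 had the smallest SE of the set here, with 25.8, 28.3, 28.4 and 30.7 CPM with oxaliplatin, against 26.3, 30.3 and 30.5 CPM with vehicle (log2 fold change -0.04 ± 0.10). Rsad2, higher in fat, had 2.86, 3.25, 1.69 and 5.22 CPM with oxaliplatin, against 2.02, 1.66 and 3.62 CPM with vehicle here (log2 fold change 0.42 ± 0.39, adjusted p = 0.719 by edgeR), with overlap. The lowest levels per kilobase were those of Oas2, Zbp1 and Mx1. Oas2 had 0.282, 0.699, 0.0769 and 0.494 CPM with oxaliplatin, against 0.376, 0.216 and 0.332 CPM with vehicle, and Zbp1 had 0.121, 0.740, 0.154 and 0.165 CPM with oxaliplatin, against 0.274, 0.108 and 0.369 CPM with vehicle. Mx1, at 0.0805, 0.123, 0 and 0 CPM with oxaliplatin and 0.103, 0.108 and 0.258 with vehicle, had no counts in oxaliplatin mice 4 and 5. No library exceeded 0.258 CPM of Mx1, and no difference was detectable at this depth.

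Log2 fold changes of the tested genes not named above ran from -0.23 (Gbp2) to 0.30 (Oas3). Oxaliplatin mouse 3 was the highest of the 7 libraries for 16 of the 28 genes, against 14.6% of all genes tested. This library is named because it was the highest for the most genes of the set, so the comparison is descriptive. Oxaliplatin mouse 2 was the highest for 0 of the 28, against 24.6% of all genes. The level of the set was 0.03, 0.43, 0.06 and -0.14 in oxaliplatin mice 2 to 5, against -0.14, 0.02 and 0.12 in vehicle mice 1, 2 and 4. Endothelial markers (3 of 9 called, higher) summed to 502, 593, 497 and 317 CPM with oxaliplatin, against 139, 143 and 151 CPM with vehicle, and mouse 3 was again the highest. Microglia markers (0 of 5 called) summed to 103, 107, 129 and 165 CPM with oxaliplatin, against 156 to 180 with vehicle, and erythroid markers (0 of 5) to 99.1, 74.4, 251 and 1320 CPM, against 645 to 912. Their part in the levels of the set was not tested.

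In muscle, Rsad2 again had the smallest p of the set, and its groups overlapped. It had 4.95, 6.59, 7.10, 7.93 and 4.81 normalised CPM in oxaliplatin mice 1 to 5, against 2.95, 6.07, 3.81 and 4.16 in vehicle mice 1 to 4. All oxaliplatin values were above those of vehicle mice 1, 3 and 4, and vehicle mouse 2 lay among them. The mean was 6.28 ± 1.36 CPM with oxaliplatin and 4.25 ± 1.32 CPM with vehicle (SD, n = 5 and 4). Its log2 fold change was 0.56 ± 0.22, with an unadjusted p of 0.0268 and an adjusted p of 0.431 by edgeR. Over the alternatives the estimate was 0.43 to 0.79 and the adjusted p 0.217 to 0.988. No gene of the set had groups apart in muscle, against 3.89% of all genes tested (2.18% apart and higher, 1.7% apart and lower).

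Bst2, second by level per kilobase in muscle (8.83 CPM per kb with oxaliplatin, 6.93 with vehicle), had 10.1, 8.37, 7.85, 8.08 and 5.47 CPM with oxaliplatin, against 6.07, 6.96, 7.06 and 4.92 CPM with vehicle (log2 fold change 0.35 ± 0.18). Ifi27l2a, the first (9.24 and 16.7 CPM per kb), had 1.84, 5.36, 1.85, 8.12 and 4.22 CPM with oxaliplatin, against 1.68, 2.69, 11.1 and 15.5 CPM with vehicle (log2 fold change -0.86 ± 0.70). Bst2 was above all vehicle mice in oxaliplatin mice 1 to 4, while Ifi27l2a spread widely within each group. Gbp7, the third (5.10 and 3.40 CPM per kb), had 59.6, 16.4, 24.0, 21.3 and 21.8 CPM with oxaliplatin, against 16.1, 18.1, 22.0 and 20.2 CPM with vehicle (log2 fold change 0.58 ± 0.34), and Gbp2 had 13.2, 8.61, 11.2, 8.49 and 5.97 CPM with oxaliplatin, against 7.51, 8.80, 7.90 and 7.75 CPM with vehicle (0.25 ± 0.20). Isg15 had 2.82, 1.11, 1.15, 1.67 and 1.099 CPM with oxaliplatin, against 1.35, 0.652, 1.01 and 1.02 CPM with vehicle (log2 fold change 0.64 ± 0.35). For Gbp7, Gbp2 and Isg15 the highest value was that of oxaliplatin mouse 1. Trim30a had 2.99, 3.85, 2.95, 3.54 and 2.64 CPM with oxaliplatin, against 2.17, 2.61, 2.06 and 3.70 CPM with vehicle (log2 fold change 0.27 ± 0.22), and Xaf1 had 3.05, 3.45, 4.85, 2.91 and 2.94 CPM with oxaliplatin, against 2.63, 3.22, 3.32 and 2.60 CPM with vehicle (0.22 ± 0.20). The adjusted p values of these 7 genes were 0.594 to 0.833 by edgeR.

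A block of sensors and effectors was set apart by vehicle mouse 4. Ddx58 had 4.59, 4.60, 4.05, 4.26 and 3.92 CPM with oxaliplatin, against 3.08, 3.01, 3.07 and 6.73 CPM with vehicle, and Oasl2 had 3.51, 3.61, 3.30, 3.00 and 2.55 CPM with oxaliplatin, against 2.30, 2.48, 2.52 and 6.16 CPM with vehicle. Ifit1 had 5.05, 3.57, 3.60, 2.84 and 3.12 CPM with oxaliplatin, against 2.75, 2.61, 3.11 and 5.88 CPM with vehicle, and Parp14 had 3.54, 2.82, 3.65, 3.41 and 4.46 CPM with oxaliplatin, against 3.12, 3.05, 3.11 and 4.52 CPM with vehicle. In all 4 the other vehicle mice lay close together, mouse 4 was the highest of all 9 libraries, and the log2 fold changes were -0.09 to 0.10. Irf9 had 9.42, 6.07, 9.60, 6.38 and 6.09 CPM with oxaliplatin, against 5.09, 7.17, 7.16 and 7.27 CPM with vehicle, with vehicle mouse 1 below all others. Vehicle mouse 4 was the highest library for 12 of the 27 tested genes, against 20.5% of all. It was singled out with the values of the set known, so this share is descriptive. Without it the median of the set was 0.27, with 0 called. The level of the set was 0.33, 0.15, 0.19, 0.17 and -0.13 in oxaliplatin mice 1 to 5, against -0.35, -0.13, 0.07 and 0.41 in vehicle mice 1 to 4. Leukocyte markers (0 of 5 called) had levels on the same scale of 0.05, -0.55, -0.87, -0.69 and -0.93, against -0.89, -0.75, 0.56 and 1.08, and macrophage markers (0 of 10 tested) of 0.24, 0.16, -0.29, -0.15 and 0.52, against -1.17, -0.52, 0.46 and 1.23. Both lists were highest in vehicle mouse 4. Endothelial markers (1 of 9 called, higher) summed to 236 to 260 CPM with oxaliplatin, against 165 to 202 CPM with vehicle. The part of these cells in the values of the set was not tested.

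Mx2, Mx1 and Oas3 were the lowest per kilobase in muscle and were below the minimum count for testing. Mx2 had 0.164, 0.238, 0.250, 0.284 and 0.149 CPM with oxaliplatin, against 0.164, 0.0407, 0.314 and 0.424 CPM with vehicle, Mx1 had 0.197, 0.0794, 0, 0.0947 and 0.238 CPM with oxaliplatin, against 0, 0.163, 0.0349 and 0.254 CPM with vehicle, and Oas3 had 0.361, 0.397, 0.250, 0.0632 and 0.119 CPM with oxaliplatin, against 0, 0, 0.489 and 0.226 CPM with vehicle. Oas3 had no counts in vehicle mice 1 and 2, and Mx1 none in oxaliplatin mouse 3 and vehicle mouse 1, so differences in these genes were not detectable at this depth. The tested genes not named above had log2 fold changes of -0.25 (Usp18) to 0.33 (Oas2). With mouse 5 set to vehicle, as its treatment entry has it, 0 genes of the set and 0 of all genes were called by edgeR, the set had 4 genes at an unadjusted p under 0.05, all higher, and its median was 0.17.

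Whether the effect of oxaliplatin differed between tissues was tested in 1 fit over the libraries of both. This fit treated all libraries as independent, although mouse numbers recur across tissues. edgeR called 0 of 31 genes for fat minus hypothalamus (0.311% of all genes were called), 0 of 30 for muscle minus hypothalamus (0.0689%) and 0 of 31 for fat minus muscle (0.239%). DESeq2 and limma-voom with the animal as a random effect called 0 in each as well. At an unadjusted p under 0.05 there were 0, 0 and 1 of the set, against 19.7%, 9.33% and 17% of all genes. The 1 was Gbp2, with an effect of -0.87 in fat and 0.25 in muscle, a difference of -1.098 ± 0.44 (adjusted p = 0.215). For fat minus muscle the next were Ifih1 (-0.63 ± 0.32), Xaf1 (-0.60 ± 0.30), Ifit3 (-0.90 ± 0.51) and Gbp3 (-0.96 ± 0.56), with adjusted p values of 0.321 to 0.405. For fat minus hypothalamus the smallest p was that of Ifit3, with an effect of -1.12 in fat and 0.20 in hypothalamus (difference -1.31 ± 0.61, adjusted p = 0.257), before Ifih1 (-0.59 ± 0.33), Ifi44 (0.96 ± 0.62), Ifit1 (-0.94 ± 0.68) and Mx1 (1.55 ± 1.12). Genes below the minimum count in 1 tissue were tested here if they passed the filter over both. Mx1 was such a gene, with at most 0.258 CPM in hypothalamus, so its difference rests on few counts there. For muscle minus hypothalamus they were Rtp4 (-0.58 ± 0.35, adjusted p = 0.673), Bst2 (0.46 ± 0.29), Gbp2 (0.51 ± 0.33), Stat2 (0.47 ± 0.32) and Gbp7 (0.58 ± 0.44). Of the 31 differences, 24 were below 0 both for fat minus hypothalamus (median -0.42) and for fat minus muscle (median -0.38). The medians over all genes were -0.03 and 0.04. The share of all genes below 0 is not given here, so these counts are not read as an excess. Both comparisons use the same fat libraries. For muscle minus hypothalamus, 12 differences were below 0 and 18 above (median 0.05, against -0.01 over all genes). Without oxaliplatin mouse 5 of fat, edgeR called 7 of the set for fat minus hypothalamus, against 15.2% of all genes, and 5 for fat minus muscle, against 8.64%. This library was already seen to go against the other oxaliplatin mice of fat. The calls without it are therefore no independent support for a difference between tissues.

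The pathway was also read from 7 further lists, 1 of which, the inhibitors, holds Usp18 of the set as well, and edgeR called none of their genes in any tissue. Of 11 interferon genes, 2 were in the fat table and 1, Ifnk, was tested there, with 1.46, 0.988, 0.818 and 0.529 CPM with oxaliplatin, against 0.601, 0.693 and 0.110 CPM with vehicle (log2 fold change 1.03 ± 0.60, adjusted p = 0.301); none was tested in the other tissues. Of the receptors and kinases, the interferon gamma receptor chain Ifngr1 had 355, 322, 217 and 184 CPM with oxaliplatin, against 154, 137 and 132 CPM with vehicle in fat, with the groups apart (log2 fold change 0.93 ± 0.25, adjusted p = 0.118). Ifngr1 also had groups apart in hypothalamus, at 20.2, 19.1, 20.4 and 18.2 CPM with oxaliplatin and 15.9, 16.3 and 17.5 with vehicle (0.24 ± 0.10, adjusted p = 0.464). The kinase Jak2 had 9.02, 14.2, 12.5, 16.1 and 12.3 CPM with oxaliplatin, against 18.4, 19.5, 20.02 and 23.3 CPM with vehicle in muscle, apart and lower (log2 fold change -0.67 ± 0.15, adjusted p = 0.134). At an unadjusted p under 0.05, this list had 1 lower gene of 8 in muscle, against 4.79% of all genes. It had 1 higher and 1 lower of 9 in fat, against 13.4% and 12.7% of all, and 1 higher of 8 in hypothalamus, against 6.2%.

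The factors upstream pointed both ways. In hypothalamus, Irf1 had 5.56, 6.13, 5.65 and 5.35 CPM with oxaliplatin, against 6.16, 8.13 and 8.57 CPM with vehicle, and Irf3 had 8.42, 10.2, 11.1 and 10.7 CPM with oxaliplatin, against 13.3, 13.2 and 11.9 CPM with vehicle. Both had groups apart and lower, with log2 fold changes of -0.43 ± 0.16 and -0.34 ± 0.13 and adjusted p values of 0.431 and 0.451 by edgeR. In fat, Irf3, which sensors activate, was apart and higher (0.30 ± 0.11, adjusted p = 0.149), as was its kinase Tbk1 (0.38 ± 0.12, adjusted p = 0.128) and the adaptors Myd88 (0.39 ± 0.14, adjusted p = 0.146) and Ticam1 (0.24 ± 0.11, adjusted p = 0.208). The RNA sensor Tlr7 was apart and higher in hypothalamus (0.87 ± 0.28, adjusted p = 0.371). Of 8 inhibitors of the pathway, Nlrx1, a mitochondrial protein, was apart and lower in fat (-0.49 ± 0.14, adjusted p = 0.123 by edgeR). There 1 other was apart and higher, and 6 of the 8 were above 0, against 52.4% of all genes (list median 0.30). In hypothalamus 1 was apart and higher, and 7 of 8 were above 0, against 52% of all genes (list median 0.08). In muscle 0 of 7 tested had an unadjusted p under 0.05, against 9.59% of all genes. Groups apart were found for 10.3% of all genes (higher) and 11.2% (lower) in fat, and for 5.58% and 4.35% in hypothalamus.

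Other interferon-stimulated genes, 42 in number, gave the most groups apart in hypothalamus. There 10 of 39 tested genes were apart and higher, against 5.58% of all genes. Slfn5 had 11.6, 10.9, 8.65 and 12.9 CPM with oxaliplatin, against 7.56, 7.02 and 7.13 CPM with vehicle (log2 fold change 0.60 ± 0.15), and Ifitm3, which blocks entry of viruses, had 12.5, 15.3, 14.1 and 11.4 CPM with oxaliplatin, against 6.12, 9.68 and 8.75 CPM with vehicle (0.70 ± 0.18). Eif2ak2 (PKR, which halts translation) had 9.87, 11.4, 10.8 and 11.2 CPM with oxaliplatin, against 7.87, 7.74 and 8.12 CPM with vehicle (log2 fold change 0.45 ± 0.12), and Samd9l had 8.26, 11.9, 9.57 and 7.36 CPM with oxaliplatin, against 4.99, 6.01 and 6.68 CPM with vehicle (0.65 ± 0.19). All oxaliplatin libraries were above all vehicle libraries in these 4, and their adjusted p values were 0.285 to 0.345 by edgeR. The level of this list was 0.12, 0.37, 0.18 and 0.05 in oxaliplatin mice 2 to 5, against -0.03, -0.02 and 0.05 in vehicle mice, and the endothelial levels were 1.04, 1.23, 1.097 and 0.76, against -0.04, 0.01 and 0.03. Whether the endothelial cells carry these values was not tested.

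In fat this list had 3 genes apart and higher and 3 apart and lower of 42, against 10.3% and 11.2% of all genes. Ifitm1 had 4.06, 9.83, 8.18 and 3.47 CPM with oxaliplatin, against 1.202, 1.62 and 1.32 CPM with vehicle (log2 fold change 2.20 ± 0.43, adjusted p = 0.0980 by edgeR). Ifi207 had 127, 117, 99.6 and 78.2 CPM with oxaliplatin, against 40.8, 57.3 and 68.6 CPM with vehicle (log2 fold change 0.92 ± 0.23). Rsad2 was thus not alone in being higher in all 4 oxaliplatin fat libraries. Parp9 and Dtx3l, partners in a ubiquitin ligase, were lower in all 4, with 24.8, 23.9, 33.9 and 51.6 CPM with oxaliplatin, against 76.6, 61.1 and 56.5 CPM with vehicle for Parp9 (-0.95 ± 0.28) and 33.9, 29.9, 40.7 and 77.0 CPM with oxaliplatin, against 96.8, 93.1 and 89.8 CPM with vehicle for Dtx3l (-1.04 ± 0.32). In muscle 1 of 35 was apart in each direction, against 2.18% of all genes apart and higher and 1.7% apart and lower. Ly6e was higher (0.38 ± 0.11, adjusted p = 0.218), with 79.3, 82.7, 86.6, 88.7 and 79.4 CPM with oxaliplatin, against 64.6, 55.1, 66.5 and 69.6 CPM with vehicle. Ifit3b, which shares sequence with Ifit3, was lower (-0.97 ± 0.24, adjusted p = 0.169), with 4.50, 6.90, 7.75, 5.84 and 3.53 CPM with oxaliplatin, against 8.25, 8.80, 14.1 and 13.3 CPM with vehicle.

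Genes that interferon gamma induces, GTPases and antigen-processing genes, made the last list. Cd274 (PD-L1, which restrains T cells) was apart and lower in fat, with 6.55, 5.87, 10.1 and 17.6 CPM with oxaliplatin, against 33.6, 24.9 and 29.5 CPM with vehicle (log2 fold change -1.55 ± 0.38, adjusted p = 0.114 by edgeR). The next in fat were Ifi47 (0.81 ± 0.35), Gbp8 (1.81 ± 0.84) and B2m (-0.58 ± 0.34), all overlapping. Ciita, the switch of MHC class II, had log2 fold changes of -1.19 ± 0.45 in muscle (overlapping) and -1.57 ± 0.65 in hypothalamus (apart and lower), with 0.282, 0.576, 0 and 0.494 CPM with oxaliplatin, against 0.889, 1.12 and 0.997 CPM with vehicle in hypothalamus. The list median was -0.24 in fat, 0.03 in hypothalamus and 0.18 in muscle.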

How the data were processed

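The 31 genes and all gene lists were chosen with earlier results of these data known. The authors deposited 1 table of expected counts per tissue; per the submitters' processing notes the tools included STAR 2.5.1a, Partek and DESeq2, and the genome build and strand of counting are not given in the sources used here. Of the deposited expected counts, 41.4% (fat), 45.7% (muscle) and 49.1% (hypothalamus) had decimals; whole counts had been assumed in the design, so they were rounded. Gene starts in the tables equalled those of GENCODE M21 (GRCm38) for 99.4% to 99.5% of matched IDs. RNA was bead-extracted with integrity above 8, per the labels' protocols. Muscle mouse 5 has a treatment entry that contradicts its title and was kept with oxaliplatin. No 2 libraries of a group were copies (lowest chi-square per degree of freedom 6.75 over 34 pairs).

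Each tissue was fitted apart with the edgeR 4.0.16 quasi-likelihood test (R 4.3.3; TMM scaling, filterByExpr with a minimum count of 10, robust dispersion, Benjamini-Hochberg adjustment over all genes tested), which tested 14737 muscle, 19870 fat and 18941 hypothalamus genes. SE is the size of the log2 fold change over √F. Differences between tissues came from a fit over both. CPM values are TMM-scaled counts at a common library total, set per tissue, so levels across tissues are from tables normalised separately. The scripts were tested on simulated data. Alternatives were DESeq2 1.42.0, limma-voom (limma 3.58.1), other scaling and filters, leaving out each library, the mouse number as a block, 1 fit over all tissues and muscle mouse 5 set to vehicle. Same-numbered mice did not deviate together, so the block was kept as an alternative only. Values of every library are printed for genes that were called, had groups apart or a library far from the others, the 8 of smallest p and the 3 of highest and lowest level per tissue; of the other lists, up to 4 genes of smallest p, some of which were left out for length. Promoters came from RefSeq (GRCm38.p6).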

Additional observations from a re-analysis of the deposited data

Results flagged for a closer look

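In groups of 4 or 5 libraries, the highest or lowest value was singled out where its gap to the nearest other, divided by the range of the group, passed the 95% critical value of Dixon's test. This held in 13 of 113 groups checked. The nominal rate of 1 in 20 holds for independent, normally distributed values, and the genes of the set share their libraries. The share over all genes is not given here, so the count is not read as an excess. In fat, 5 were values of oxaliplatin mouse 5: Irf7 at 55.8 CPM (the others 14.3 to 20.5), Gbp2 at 53.3 (18.0 to 23.2), Gbp3 at 31.4 (7.85 to 11.3), Gbp7 at 70.1 (35.8 to 41.5) and Ifi27l2a at 347 (35.8 to 51.4). In muscle, 4 were values of vehicle mouse 4: Ddx58 at 6.73 CPM (the others 3.01 to 3.08), Oasl2 at 6.16 (2.30 to 2.52), Ifit1 at 5.88 (2.61 to 3.11) and Parp14 at 4.52 (3.05 to 3.12). The other values in muscle were Gbp7 in oxaliplatin mouse 1 at 59.6 CPM (16.4 to 24.0), Xaf1 in oxaliplatin mouse 3 at 4.85 (2.91 to 3.45) and Irf9 in vehicle mouse 1 at 5.09 (7.16 to 7.27). In hypothalamus, Stat2 in oxaliplatin mouse 3 was at 11.0 CPM (13.4 to 13.7).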

How the results depend on the processing

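The median of the set changed sign in hypothalamus, to -0.069 with the block and -0.02 without oxaliplatin mouse 3, against 0.15, and in muscle, to -0.02 without vehicle mouse 1, against 0.11. Calls over all genes moved most. In muscle, 24 by edgeR, they were 248 with DESeq2, 13 with limma-voom, 42 without a filter, 3 with the mouse number as a block, 0 with mouse 5 set to vehicle, 91 in 1 fit over all tissues and 2 to 17 with a library left out. In fat, 0 by edgeR, they were 2377 with DESeq2, 2909 in 1 fit and 0 to 4969 with a library left out, where 0 to 1 of the 31 genes was called higher and 0 to 17 lower, the most without oxaliplatin mouse 5, where Rsad2 was the higher 1; DESeq2 called 1 of the 31, Rsad2, higher. In hypothalamus, 28 by edgeR, they were 266 with DESeq2, 11 with limma-voom, 55 in 1 fit and 0 to 655 with a library left out, the highest without oxaliplatin mouse 5. For fat minus hypothalamus, 65 by edgeR, they were 1221 with DESeq2, 264 with limma-voom and the animal as a random effect, and 3 to 3151 with a library left out, where 0 to 7 of the set were called. For muscle minus hypothalamus, 12 by edgeR, they were 195 with DESeq2 and 2 to 110 with a library left out. For fat minus muscle, 45 by edgeR, they were 792 with DESeq2, 14 with limma-voom and the animal as a random effect, and 14 to 1626 with a library left out, where 0 to 5 of the set were called. The block called 0 of the set in every tissue. Same-numbered mice of different treatments correlated at -0.284 to 0.163 within a tissue. The cause of these moves was not tested. Depth limits Mx1, Oas3 and Zbp1, which had few counts outside fat.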
